A study of Mus musculus with 16 samples.

Results

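The receptors for glutamate and GABA (γ-aminobutyric acid), the main excitatory and inhibitory transmitters of the brain, were measured at the RNA level in mouse cerebral cortex after injection of adeno-associated virus (AAV), by bulk sequencing. Members were chosen by gene symbol: the AMPA, NMDA, kainate and delta ionotropic glutamate receptors, the metabotropic glutamate receptors, and the GABA-A and GABA-B receptors. Of 47 such genes in the table, 41 reached at least 10 counts in at least 4 libraries and were followed, out of 17863 genes that passed this filter and 55359 genes listed. The other 6 were Gabra6, Gabrp, Gabrr1, Gabrr3, Grin3b and Grm6, with 2 to 82 counts in all 16 libraries together.

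The 16 libraries fell into 4 groups of 4, named by construct in the series' design: ATG-GGC11, ATG-GGC100, TAG-GGC100 and ATG-GGN100dCT. All groups were injected with AAV, so the comparisons are between constructs and not with uninjected tissue. The series asks which transcripts change with polyG proteins, the glycine repeats encoded by GGC and GGN runs. The sources used here do not give strain, age, sex, promoter or time after injection. Nor do the labels tie each library to its own animal, and a p-value below therefore reflects only how these libraries scatter.

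AMPA and kainate receptors are glutamate-gated cation channels that carry fast currents, and NMDA receptors are calcium-permeable channels that need both glutamate and a co-agonist, glycine or D-serine. Metabotropic glutamate receptors and GABA-B receptors signal through G proteins, whereas GABA-A receptors are pentameric chloride channels, in cortex most often built of alpha, beta and gamma subunits. In rodent cortex the GluN2A subunit becomes more abundant as synapses mature.

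Depth ranged from 12838756 to 19131210 counts per library, and the receptor genes took 0.617% to 0.692% of them. In each library the construct row of its own label held reads: 451 to 1117 counts in ATG-GGC11, 17 to 38 in ATG-GGC100, 147 to 285 in TAG-GGC100 and 132 to 503 in ATG-GGN100dCT. Rows of other labels held reads too. The row named Control, the one filled in ATG-GGC11, had 16 to 45 counts in ATG-GGC100, about as many as that group's own row. It had 3 to 12 counts in TAG-GGC100. The row filled in TAG-GGC100 had 8 to 27 counts in ATG-GGC11, 4 to 16 in ATG-GGC100 and 2 to 18 in ATG-GGN100dCT. ATG-GGN100dCT replicate 3 stood apart among the receptor genes by its high values. It was the highest of 16 libraries for 12 of 41 members, beside 14.0% of all genes tested, an excess that was not tested. It was the lowest for 6 of 41, a share near the 14.4% of all genes. The receptor genes called in that group are therefore given with and without it, and the other values include it. The 4 ATG-GGN100dCT libraries also held more liver transcripts than the others. Alb (serum albumin) lay between 9.27 and 10.77 FPKM (fragments per kilobase of exon, scaled to library size) there and at most at 0.07 elsewhere. The summed level of 10 hepatocyte markers was 16.8 to 21.6 FPKM in that group, 3.32 to 5.10 in ATG-GGC11, 2.00 to 4.15 in ATG-GGC100 and 1.13 to 9.21 in TAG-GGC100. These sums include Ttr, also a marker of choroid plexus. Its mean and SD were 3.31 ± 0.958 FPKM in ATG-GGC11, 2.16 ± 0.868 in ATG-GGC100 and 3.235 ± 3.54 in TAG-GGC100, most of the sum there. In ATG-GGN100dCT it was at 2.19 ± 0.811 FPKM. Serpina1c, Fgb, Fgg and Ahsg were listed at 0 in every library of the other 3 groups. Their part in the receptor results was not tested.

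The receptor genes were well expressed: the median member had a mean of 10.95 FPKM over the 16 libraries, beside 3.85 FPKM for the median gene tested. Levels were at least 10 FPKM for 24 members, 1 to 10 FPKM for 13 and under 1 FPKM for 4, among them Gabre, Gabrq and Gabrr2. Gabbr1, the GABA-B subunit that binds GABA, was highest at 95.1 ± 2.73 FPKM (SD, n = 16), and it was also steady, with a coefficient of variation of 2.87%.

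**Figure D1:**
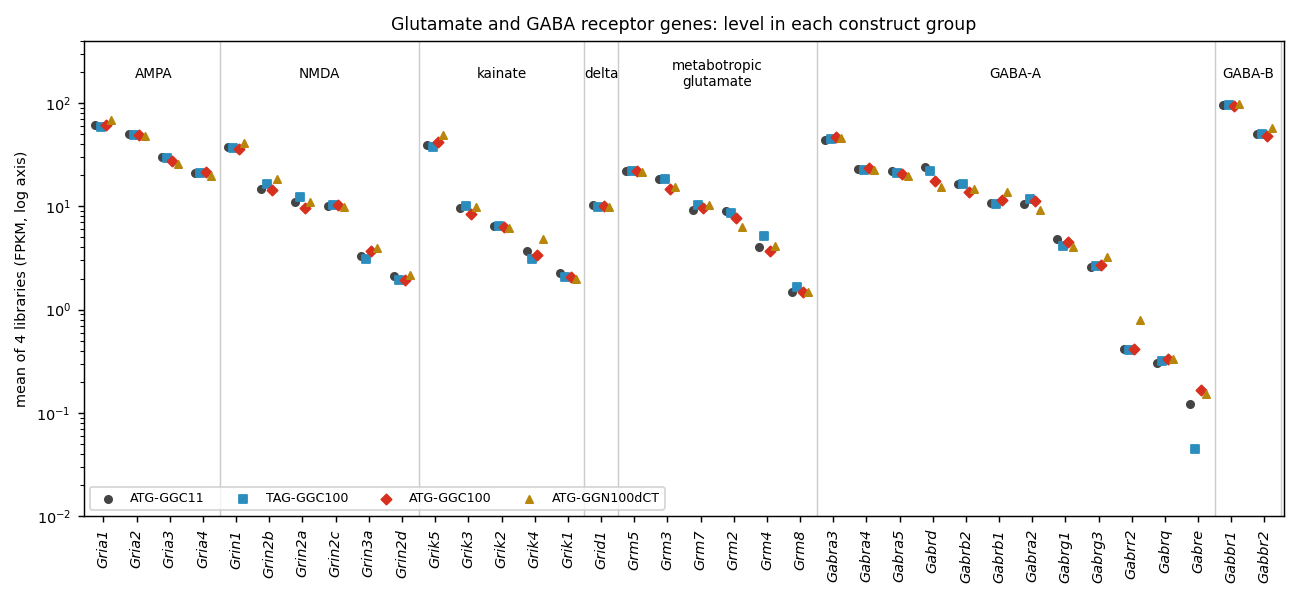
Mean level of receptor genes in each group (36 of 41 shown) (vertical log axis, FPKM; each point is the mean of 4 libraries), with genes ordered by level within receptor classes. Group means lie close together for most genes, from Gabbr1 at about 95.1 FPKM down to Gabre at 0.122.

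Levels of different genes in FPKM depend on the exonic length listed for each. Gria1, the GluA1 subunit, led the AMPA receptors at 62.6 ± 6.87 FPKM, ahead of Gria2, the subunit whose edited form keeps calcium out, at 49.0 ± 3.40 FPKM. By counts the order was the reverse, with 97542 for Gria1 over 6043 bases and 197014 for Gria2 over 15548 bases. Grin1, the obligatory NMDA subunit, stood at 37.6 ± 2.87 FPKM, above Grin2b at 15.96 ± 2.42, Grin2a at 10.95 ± 1.29 and Grin2c at 10.1 ± 0.776. Grik5, a high-affinity kainate subunit that forms channels only with other kainate subunits, was at 41.8 ± 5.85 FPKM. The next kainate gene, Grik3, was at 9.47 ± 1.01. Grm5, the Gq-coupled mGluR5, led the metabotropic receptors at 21.9 ± 1.70 FPKM and Grid1 led the delta receptors at 10.05 ± 0.572. Among GABA-A subunits, Gabra3, prominent in early development, was at 45.3 ± 3.44 FPKM, Gabra2 at 10.7 ± 1.14 and Gabrd, found in extrasynaptic receptors, at 19.8 ± 4.95. The median coefficient of variation over 16 libraries was 13.7% for the receptor genes and 14.5% for all genes tested.

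Few receptor genes were called between constructs. Their median absolute log2 difference was 0.204 in ATG-GGN100dCT against ATG-GGC11 and 0.184 against TAG-GGC100, above the 0.157 and 0.162 of all genes. In the other comparisons it was 0.0612 to 0.129, each below that of all genes. These gaps were not tested. The 6 comparisons between groups were tested with edgeR's quasi-likelihood test, and a gene was called at a Benjamini-Hochberg adjusted p under 0.05 over all 17863 genes. ATG-GGC100 against ATG-GGC11 called 1 of 41 receptor genes, Grm3, which was lower; of all genes 3.44% were called, 2.21% higher and 1.23% lower. An unadjusted p under 0.05 was met by 5 receptor genes, beside 16.6% of all genes, and 3 did not overlap between the groups, beside 11.3%. TAG-GGC100 against ATG-GGC11 called no receptor gene by edgeR or by DESeq2, beside 0.0056% of all genes. There 3 of 41 had an unadjusted p under 0.05, beside 6.87%, and 1 did not overlap, beside 4.1%.

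ATG-GGN100dCT against ATG-GGC11 called 3, all lower, Grm2 among them, beside 6.44% of all genes, 3.13% higher and 3.31% lower. It had 14 receptor genes under an unadjusted p of 0.05, beside 23.7% of all genes, and 5 without overlap, beside 14.2%. With library totals in place of TMM (trimmed mean of M-values) scaling it called 1 higher and 3 lower. Without ATG-GGN100dCT replicate 3 it called 2, beside 481 of 17731 genes in all. Without replicate 2 of that group it called 10, beside 1768 of 17779, and without TAG-GGC100 replicate 4 it called 5, beside 1225 of 17823.

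ATG-GGC100 against TAG-GGC100 called 3, all lower (Grin2a, Grm3, Grik3), beside 7.43% of all genes, 3.98% higher and 3.45% lower. Here 8 receptor genes had an unadjusted p under 0.05, beside 23.2%, and 3 did not overlap, beside 13.5%. It called 1 without ATG-GGC100 replicate 2 or 3 or TAG-GGC100 replicate 2, beside 626, 679 and 518 of all genes. It called 6 without ATG-GGN100dCT replicate 3, a library outside the contrast that enters the shared spread, beside 1642 of all genes.

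ATG-GGN100dCT against TAG-GGC100 called 6, beside 8.77% of all genes. Of these, 3 were higher, Grik4 and Grik5 among them, beside 4.27% of all genes, and 3 were lower, Gabra2 among them, beside 4.5%. That split was 4 higher and 2 lower with library totals as scaling. An unadjusted p under 0.05 was met by 16 receptor genes, beside 24.9%, and 5 did not overlap, beside 12.8%. Without ATG-GGN100dCT replicate 3 this comparison called 3, Gabra2 and Grik4 among them, beside 707 of all genes. It also called 3 without TAG-GGC100 replicate 2, beside 569, and 11 without ATG-GGN100dCT replicate 2, beside 2070.

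ATG-GGN100dCT against ATG-GGC100 called 2, beside 2.02% of all genes: Grik4 was higher, beside 0.834%, and Gabra2 lower, beside 1.18%. Here 10 receptor genes had an unadjusted p under 0.05, beside 16.5%, and 4 did not overlap, beside 7.92%. It called 0 by edgeR without any 1 of ATG-GGC100 replicates 1 and 3 and ATG-GGN100dCT replicates 1, 3 and 4, beside 200, 161, 156, 148 and 226 of all genes. A single test over the 4 groups called 6, among them Grik4, Gabra2, Grm3 and Grin2a, beside 12.2% of all genes, and 12 without ATG-GGN100dCT replicate 2, beside 2669 of all genes. The share of receptor genes called was thus 14.6% in ATG-GGN100dCT against TAG-GGC100 and 4.88% against ATG-GGC100. These lay above the 8.77% and 2.02% of all genes but rest on 6 and 2 genes, and the excess was not tested. Shares nearer those of all genes were 2.44% in ATG-GGC100 against ATG-GGC11 and 7.32% against TAG-GGC100. So were 7.32% in ATG-GGN100dCT against ATG-GGC11 and 14.6% over the 4 groups. Comparisons that have a group in common share its libraries, and in bulk tissue fewer cells of a type and less RNA per cell cannot be told apart.

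**Figure D2:**
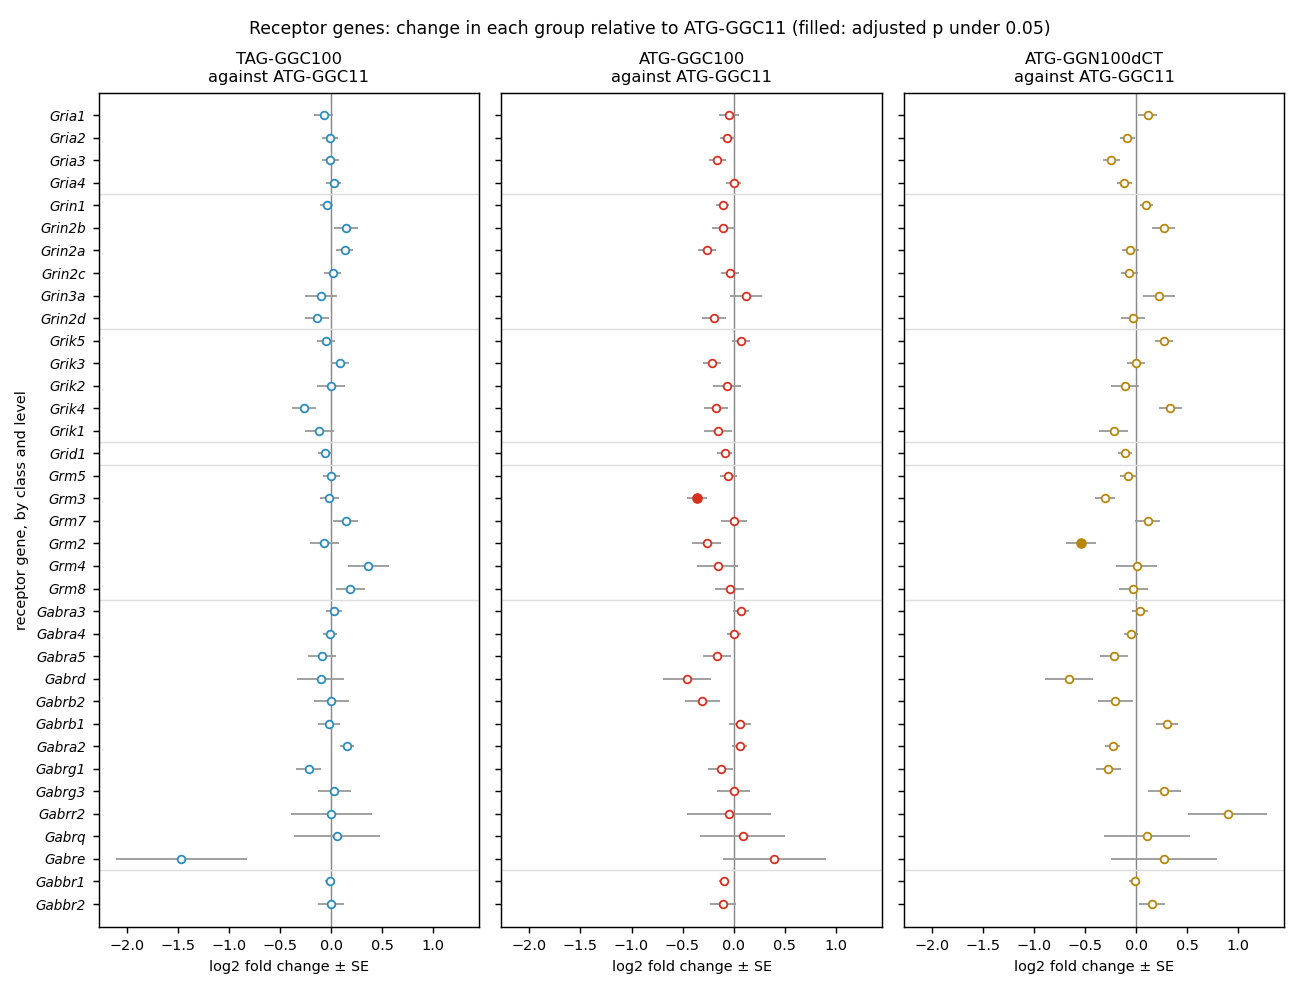
Log2 fold change with its SE for 36 of the 41 receptor genes in each of 3 groups against ATG-GGC11, which all 3 panels share (filled points: adjusted p under 0.05). Most genes lie near 0, with Grm3 filled for ATG-GGC100 and Grm2 for ATG-GGN100dCT; the widest error bars belong to Gabre, Gabrq and Gabrr2.

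Gabra2, an alpha subunit concentrated in forebrain and at axon initial segments, lies on chromosome 5 beside Gabrg1, Gabra4 and Gabrb1. It was lowest in ATG-GGN100dCT, with 8.95, 10.16, 9.60 and 8.20 FPKM. The values were 10.83, 11.89, 11.73 and 12.45 FPKM in TAG-GGC100, and 11.28, 10.65, 11.93 and 11.29 FPKM in ATG-GGC100. The ATG-GGN100dCT libraries lay below all 8 of these, whereas ATG-GGC11, at 10.33, 10.65, 10.02 and 11.17 FPKM, overlapped them. Gabra2 fell by 0.38 ± 0.07 (log2 ± SE) against TAG-GGC100 (edgeR adjusted p = 0.00398), a call kept in all 29 alternatives run. The difference from ATG-GGC11, -0.23 ± 0.07, was not called (edgeR adjusted p = 0.0522), nor was that between TAG-GGC100 and ATG-GGC11, 0.15 ± 0.07 (0.698). Against ATG-GGC100 it fell by 0.29 ± 0.07 (edgeR adjusted p = 0.0341), and without ATG-GGN100dCT replicate 3 the value was -0.31 with an adjusted p of 0.0534. That call was also lost without ATG-GGC100 replicate 1, 3 or 4 or ATG-GGN100dCT replicate 1 or 4. Its neighbours on chromosome 5 were called nowhere; Gabrb1 had a log2 difference of 0.32 ± 0.11 in ATG-GGN100dCT against TAG-GGC100 (edgeR adjusted p = 0.0647). Gabrb1 and Gabra4 overlap on opposite strands and the protocol names no step that marks strand, so their reads near the overlap cannot be told apart.

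Gabrd codes for the delta subunit of extrasynaptic receptors that carry tonic inhibition. It held 20.76, 24.04, 23.86 and 26.39 FPKM in ATG-GGC11 and 22.32, 19.65, 24.26 and 22.35 in TAG-GGC100. It held 18.07, 13.56, 20.74 and 18.64 FPKM in ATG-GGC100, and 16.01, 24.60, 8.47 and 13 in ATG-GGN100dCT. The ATG-GGC100 libraries lay just below those of ATG-GGC11, by as little as 20.74 against 20.76, and ATG-GGN100dCT covered the widest range of any group. No comparison called Gabrd; its log2 difference from ATG-GGC11 was -0.46 ± 0.23 in ATG-GGC100 and -0.66 ± 0.24 in ATG-GGN100dCT (edgeR adjusted p = 0.356 and 0.113). Gabre, which codes for the epsilon subunit, had 7, 14, 6 and 11 counts in ATG-GGC11, 10, 22, 13 and 9 in ATG-GGC100, 4, 4, 3 and 2 in TAG-GGC100, and 3, 4, 28 and 11 in ATG-GGN100dCT. The TAG-GGC100 libraries were thus below all of ATG-GGC11 and ATG-GGC100, at counts too low for a close estimate. Its log2 difference was 1.87 ± 0.61 in ATG-GGC100 against TAG-GGC100 and -1.47 ± 0.64 in TAG-GGC100 against ATG-GGC11, neither called by edgeR (adjusted p = 0.0656 and 0.669).

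Grik4, the other high-affinity kainate subunit beside Grik5, was higher in ATG-GGN100dCT. Its level was 4.73, 3.78, 5.18 and 5.45 FPKM there, 3.22, 2.78, 2.84 and 3.40 FPKM in TAG-GGC100, and 2.78, 3.77, 3.18 and 3.74 FPKM in ATG-GGC100. ATG-GGN100dCT lay above every library of those groups, its replicate 2 only just, and overlapped ATG-GGC11 at 4.21, 3.45, 3.38 and 3.71 FPKM. Grik4 rose by 0.61 ± 0.12 (log2) against TAG-GGC100, a 1.52-fold difference (edgeR adjusted p = 0.00555), and this call was kept in all 29 alternatives run. Against ATG-GGC100 the log2 difference was 0.51 ± 0.12 (edgeR adjusted p = 0.0243), which was lost without ATG-GGN100dCT replicate 3 (0.46 and 0.0808). It was also lost without ATG-GGC100 replicate 1 or 3 or ATG-GGN100dCT replicate 1 or 4, with values of 0.40 to 0.61 over all alternatives. Against ATG-GGC11 the difference was 0.34 ± 0.12, and in TAG-GGC100 against ATG-GGC11 it was -0.27 ± 0.12, neither called (edgeR adjusted p = 0.0825 and 0.674).

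The promoters of Grik4, Gabra2 and Grm3, the members called in more than 1 comparison for which a window was at hand, are shown because the construct names give GGC or GGN repeats. Windows are the 250 bases before the gene start from RefSeq, build GRCm38.p6, all on the minus strand, at chr9:42944372-42944621 for Grik4, chr5:71095850-71096099 for Gabra2 and chr5:9725353-9725602 for Grm3. Capitals mark a run of GGC units, read as GCC on this strand.
Grik4: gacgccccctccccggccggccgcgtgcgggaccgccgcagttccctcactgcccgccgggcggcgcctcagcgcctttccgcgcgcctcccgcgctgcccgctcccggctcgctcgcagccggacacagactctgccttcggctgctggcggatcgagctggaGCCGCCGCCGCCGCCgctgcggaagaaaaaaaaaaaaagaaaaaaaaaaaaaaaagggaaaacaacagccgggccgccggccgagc
Gabra2: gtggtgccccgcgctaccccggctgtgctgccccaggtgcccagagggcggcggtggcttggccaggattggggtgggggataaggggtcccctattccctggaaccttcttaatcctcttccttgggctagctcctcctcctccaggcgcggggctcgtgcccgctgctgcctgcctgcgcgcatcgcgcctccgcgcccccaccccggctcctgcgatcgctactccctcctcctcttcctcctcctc
Grm3: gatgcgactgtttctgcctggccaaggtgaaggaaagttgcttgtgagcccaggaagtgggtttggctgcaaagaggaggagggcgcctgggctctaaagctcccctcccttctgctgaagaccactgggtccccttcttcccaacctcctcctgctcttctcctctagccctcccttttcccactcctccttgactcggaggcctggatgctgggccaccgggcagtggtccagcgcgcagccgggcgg
The run in Grik4 spans 15 bases, 86 to 72 bases before the start. The search was for GGCGGCGGC or its complement GCCGCCGCC, and Grik4 alone of the 26 receptor genes with a window held it, beside 2.74% of all 32851 windows. GC content was 69.6% in Grik4, 70.0% in Gabra2 and 62.4% in Grm3, against a median of 52.4% over all windows. The EGR motif GCGNGGGCG, on either strand, was in the windows of Gabrb2 and Gria4 and in 4.7% of all windows. The cAMP response element TGACGTCA was in no receptor window and in 1.55% of all. These matches are letters in a window and carry no statement on binding.

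Grik5 was at 44.65, 41.43, 57.52 and 50.15 FPKM in ATG-GGN100dCT and at 41.90, 35.67, 36.51 and 36.35 FPKM in TAG-GGC100. The groups overlapped only through TAG-GGC100 replicate 1. The log2 difference was 0.33 ± 0.09 (edgeR adjusted p = 0.0281), and 0.23 with an adjusted p of 0.0975 without ATG-GGN100dCT replicate 3, the highest of the 16 libraries. It was also lost without ATG-GGN100dCT replicate 4 or TAG-GGC100 replicate 2, 3 or 4. ATG-GGC11, at 37.21, 37.94, 41.27 and 39.26 FPKM, did not overlap ATG-GGN100dCT, and that difference was 0.28 ± 0.09, not called (edgeR adjusted p = 0.0650).

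Grik3, a low-affinity kainate subunit, was at 7.30, 8.13, 7.85 and 10.60 FPKM in ATG-GGC100 and 9.55, 10.82, 10.48 and 9.65 FPKM in TAG-GGC100. Replicates 1 to 3 of ATG-GGC100 lay below every TAG-GGC100 library and replicate 4 among them. The log2 difference of -0.30 ± 0.09 was called (edgeR adjusted p = 0.0422), but lost in 13 of 29 alternatives, among them without ATG-GGC100 replicate 1, 2 or 3, TAG-GGC100 replicate 2, 3 or 4, or ATG-GGC11 replicate 2 or 3 (adjusted p up to 0.141). Against ATG-GGC11, at 9.01, 9.61, 9.27 and 10.19 FPKM, the difference was -0.21 ± 0.09, not called (edgeR adjusted p = 0.223). Summed over the class, kainate subunits came to 60.8 ± 1.43 FPKM in ATG-GGC11, 59.3 ± 2.89 in TAG-GGC100, 62.4 ± 4.14 in ATG-GGC100 and 71.2 ± 6.46 in ATG-GGN100dCT, most of it Grik5.

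Grin2a, the NMDA subunit GluN2A, was lower in ATG-GGC100 than in TAG-GGC100. The values were 8.68, 8.81, 10.04 and 10.60 FPKM in ATG-GGC100 against 11.14, 13.08, 12.05 and 12.47 FPKM in TAG-GGC100. These groups did not overlap, while ATG-GGC11, at 12.92, 10.19, 10.61 and 10.72 FPKM, and ATG-GGN100dCT, at 11.59, 11.41, 11 and 9.90 FPKM, lay across both. Grin2a fell by 0.40 ± 0.09 (log2; edgeR adjusted p = 0.00814), and the call was kept in all 29 alternatives run. Against ATG-GGC11 the difference was -0.26 ± 0.09, not called (edgeR adjusted p = 0.103).

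Grin2b, the GluN2B subunit, was at 17.85, 16.82, 21.38 and 17.36 FPKM in ATG-GGN100dCT and 11.91, 15.09, 12.86 and 17.1 in ATG-GGC100. It was at 15.68, 14.02, 14.09 and 15.55 FPKM in ATG-GGC11 and 15.5, 19.29, 16.93 and 13.87 in TAG-GGC100. ATG-GGN100dCT and ATG-GGC100 overlapped slightly, and their log2 difference of 0.37 ± 0.11 was not called (edgeR adjusted p = 0.104). Grin1 was at 40.24, 40.05, 45.99 and 38.38 FPKM in ATG-GGN100dCT, above ATG-GGC100 at 36.59, 36.31, 34.22 and 35.86. Every library of the one group exceeded every library of the other, but the difference of 0.21 ± 0.06 was not called (edgeR adjusted p = 0.0998). DESeq2 called both of these. Grin1 was at 36.86, 36.95, 38.55 and 37.15 FPKM in ATG-GGC11 and 39.33, 36.11, 35.22 and 34.48 in TAG-GGC100. The ratio of Grin2b to Grin2a was 1.34 ± 0.10 (SD, n = 4) in ATG-GGC11, 1.35 ± 0.16 in TAG-GGC100, 1.495 ± 0.202 in ATG-GGC100 and 1.68 ± 0.21 in ATG-GGN100dCT, given without a test. The ratio of Gria1 to Gria2 was 1.24 ± 0.04 in ATG-GGC11, 1.26 ± 0.13 in ATG-GGC100, 1.19 ± 0.10 in TAG-GGC100 and 1.43 ± 0.18 in ATG-GGN100dCT, also untested. The size of both ratios depends on the exonic lengths that FPKM divides by. The Grin2b to Grin2a ratios of ATG-GGN100dCT all lay above those of ATG-GGC11, and every other pair of groups overlapped in both ratios.

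**Figure D3:**
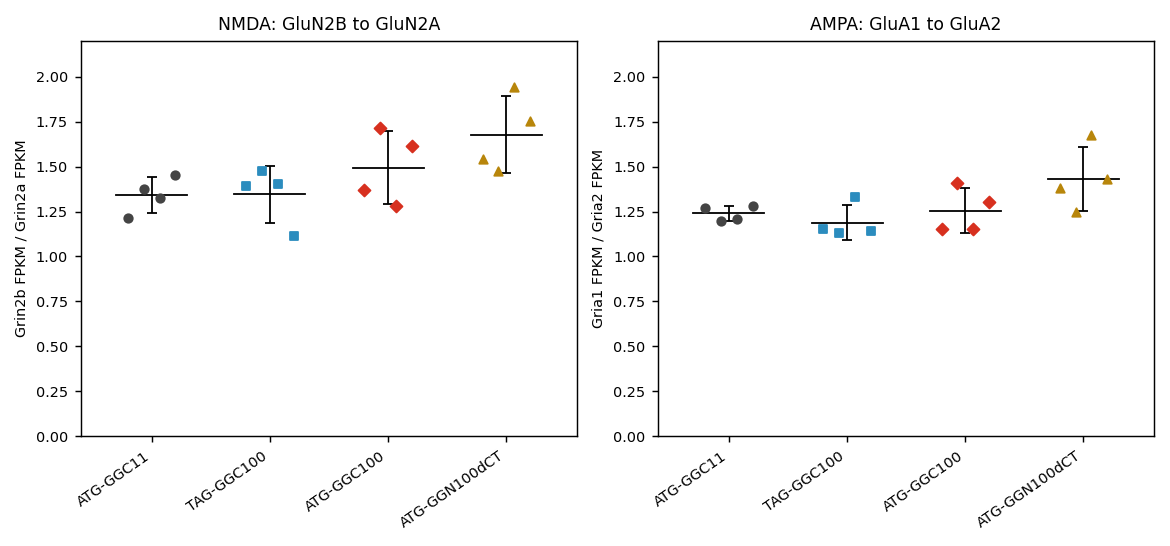
Ratio of Grin2b to Grin2a FPKM (left) and of Gria1 to Gria2 FPKM (right) in each library, axes from 0, with the mean and SD of each group (n = 4). The highest ratios, 1.94 and 1.67, are both in ATG-GGN100dCT.

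Grm3, a Gi-coupled metabotropic receptor abundant in astrocytes as well as in neurons, was lower in ATG-GGC100. Its libraries held 15.72, 13.89, 15.50 and 14.29 FPKM, against 19.09, 17.74, 17.68 and 19.54 FPKM in ATG-GGC11. The groups did not overlap, and Grm3 fell by 0.36 ± 0.10 (log2; edgeR adjusted p = 0.0450). This is close to the threshold: the call was lost in 14 of 29 alternatives, including the leaving out of any ATG-GGC11 library, of ATG-GGC100 replicate 2, 3 or 4, of TAG-GGC100 replicate 2 or of ATG-GGN100dCT replicate 4, with adjusted p up to 0.141 and log2 values of -0.39 to -0.30. Against TAG-GGC100, at 17.42, 19.00, 21.43 and 15.37 FPKM, the difference was -0.34 ± 0.10 (edgeR adjusted p = 0.0370), and replicate 4 of that group lay within the ATG-GGC100 range. It was lost in 9 of 29 alternatives, among them without ATG-GGC100 replicate 2, 3 or 4 or TAG-GGC100 replicate 2 or 3. In ATG-GGN100dCT the gene was at 17.75, 14.53, 12.89 and 16.48 FPKM, a log2 difference from ATG-GGC11 of -0.30 ± 0.10 that was not called (edgeR adjusted p = 0.0645). Of 12 astrocyte markers, Gfap, which reactive astrocytes raise, rose from 42.8 ± 9.47 to 193 ± 22.5 FPKM in ATG-GGC100 against ATG-GGC11 (2.13 ± 0.29 log2; edgeR adjusted p = 0.00120), S1pr1 fell and 10 were not called. In ATG-GGC100 against TAG-GGC100, Gfap, Aqp4 and Sox9 rose and none fell. In ATG-GGN100dCT against ATG-GGC11, Gfap rose and S1pr1, Gja1 and Slc1a3 fell. The summed level of the 12 markers was 877 to 1025 FPKM in ATG-GGC11, 1005 to 1238 in ATG-GGC100, 863 to 909 in TAG-GGC100 and 838 to 996 in ATG-GGN100dCT, and none was listed at 0 in a whole group. The mean sum was 952 FPKM in ATG-GGC11 and 1078 in ATG-GGC100, a smaller rise than that of Gfap alone. The list's median log2 difference in that comparison was -0.0026. The part of astrocytes in the Grm3 values was not tested.

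Grm2, the related presynaptic receptor of neurons, was at 6.43, 7.69, 4.75 and 6.54 FPKM in ATG-GGN100dCT and at 10.45, 8.33, 8.97 and 8.05 FPKM in ATG-GGC11. The groups did not overlap, and Grm2 fell by 0.54 ± 0.15 (log2; edgeR adjusted p = 0.0380). Without ATG-GGN100dCT replicate 3, its lowest library, the value was -0.43 with an adjusted p of 0.102, and the call was also lost without ATG-GGN100dCT replicate 1 or 4 or ATG-GGC11 replicate 1, 2 or 3 (up to 0.195 over all alternatives). ATG-GGC100, at 8.16, 6.36, 7.6 and 8.56 FPKM, and TAG-GGC100, at 10.1, 9.30, 6.56 and 8.24, overlapped both groups. Grm4, a presynaptic Gi-coupled receptor, was at 3.65, 3.18, 4.26 and 4.96 FPKM in ATG-GGC11 and 3.87, 5.31, 6 and 5.38 in TAG-GGC100. The groups overlapped, with a log2 difference of 0.36 ± 0.20 that was not called (edgeR adjusted p = 0.784).

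Grm5 held 22.6, 22.83, 19.52 and 23.45 FPKM in ATG-GGC11, 20.88, 21.69, 22.06 and 23.19 in ATG-GGC100, 22, 22.72, 24.74 and 18.94 in TAG-GGC100, and 22.98, 23.49, 20.55 and 19.04 in ATG-GGN100dCT. All 4 groups overlapped, and this most abundant metabotropic receptor was called nowhere. Grm7 and Grm8, presynaptic Gi-coupled receptors, were at 9.82 ± 1.32 and 1.52 ± 0.225 FPKM (SD, n = 16) and likewise called nowhere.

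**Figure D4:**
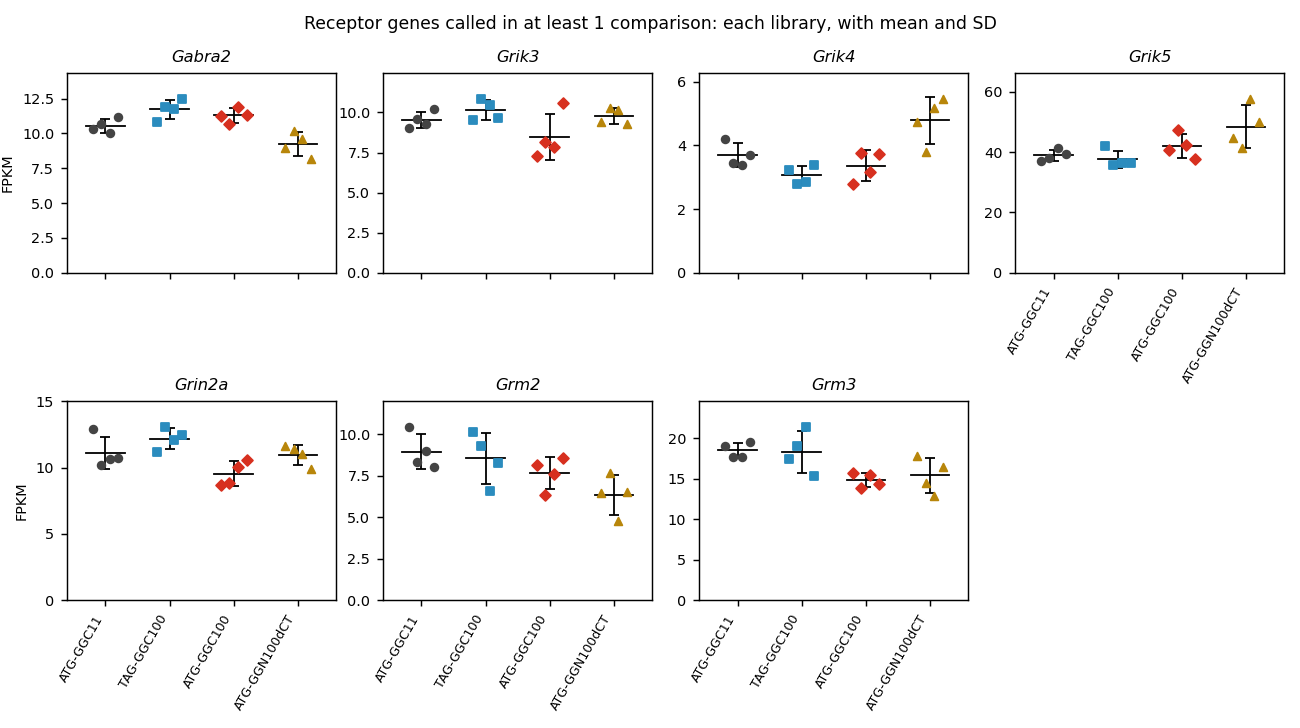
Level (FPKM, axes from 0) of 7 receptor genes called in at least 1 comparison, 1 point per library, with the mean and SD of each group. Gabra2 and Grm2 are lowest and Grik4 and Grik5 highest in ATG-GGN100dCT, while Grin2a, Grik3 and Grm3 are lowest in ATG-GGC100.

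AMPA, delta and GABA-B receptor genes were called in no comparison. Gria1 held 69.3, 60.05, 53.46 and 64.01 FPKM in ATG-GGC11, 51.26, 65.82, 60.03 and 69.17 in ATG-GGC100, 58.83, 57.42, 66.57 and 51.93 in TAG-GGC100, and 66.66, 66.37, 75.79 and 65.11 in ATG-GGN100dCT. The groups overlapped, with ATG-GGN100dCT at the upper end. Gria2 varied less, with group means of 48.1 to 49.7 FPKM. The largest AMPA difference from ATG-GGC11 was that of Gria3 in ATG-GGN100dCT, at -0.24 ± 0.08 (log2; edgeR adjusted p = 0.0827), from 29.7 ± 1.97 to 25.8 ± 3.79 FPKM. Gria4 was at 20.8 ± 1.52 FPKM over all libraries.

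Grid1, a synaptic organiser that binds cerebellins, held 10.68, 10.91, 9.75 and 10.09 FPKM in ATG-GGC11 and 10.27, 10.48, 9.40 and 9.97 in ATG-GGC100. It held 10.34, 10.8, 9.73 and 8.83 FPKM in TAG-GGC100 and 9.75, 9.89, 10.52 and 9.39 in ATG-GGN100dCT, so that all groups overlapped. Gabbr1 held 95.41, 96.7, 93.07 and 97.71 FPKM in ATG-GGC11 and 95.29, 93.39, 89.53 and 91.7 in ATG-GGC100. It held 96.83, 96.74, 95.89 and 90.33 FPKM in TAG-GGC100 and 98.61, 96.47, 97.85 and 96.52 in ATG-GGN100dCT. Every ATG-GGC100 library lay below every ATG-GGN100dCT library, a log2 difference of 0.08 ± 0.05 that was not called (edgeR adjusted p = 0.474), and the other pairs of groups overlapped. Gabbr2, the subunit that couples GABA-B receptors to G proteins, lay between 42.2 and 56.1 FPKM apart from 75.2 in ATG-GGN100dCT replicate 3.

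Gabrb2, a beta subunit gene, was at 16.6 ± 2.56 FPKM in ATG-GGC11, 13.8 ± 2.08 in ATG-GGC100, 16.6 ± 4.32 in TAG-GGC100 and 14.8 ± 1.22 in ATG-GGN100dCT, and was called in no comparison. Gabra4 and Gabra5, alpha subunits of extrasynaptic receptors, were at 22.9 ± 1.33 and 20.8 ± 3.03 FPKM over the 16 libraries. Gabrg1 was at 4.38 ± 0.617, Gabrg3 at 2.80 ± 0.517, the rho subunit gene Gabrr2 at 0.510 ± 0.255 and the theta subunit gene Gabrq at 0.321 ± 0.133. Gabra5 overlaps another gene on the opposite strand, and Grin2d overlaps Kdelr1, with 12501 counts of Kdelr1 to 3526 of Grin2d, so the levels of Gabra5 and Grin2d may hold reads of those genes. The remaining glutamate receptors were also called nowhere, with Grin3a at 3.50 ± 0.664 FPKM, Grin2d at 2.04 ± 0.232 and Grik1 at 2.10 ± 0.300. The median SE of a receptor gene was 0.10 on the log2 scale in each comparison, so differences much smaller than the calls above were not detectable with 4 libraries a group.

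Partners of these receptors were followed as lists. None of the lists below had a gene called in TAG-GGC100 against ATG-GGC11, where 1 of all 17863 genes was called. In ATG-GGC100, 1.23% of all genes were called lower and 2.21% higher against ATG-GGC11, and 3.45% and 3.98% against TAG-GGC100. In ATG-GGN100dCT the shares were 3.31% and 3.13% against ATG-GGC11, 4.5% and 4.27% against TAG-GGC100, and 1.18% and 0.834% against ATG-GGC100. The counts of list genes below stand beside these shares. Of 20 postsynaptic density scaffold genes, none rose in any comparison. In ATG-GGC100, 1 fell against ATG-GGC11 (Shank1) and 4 fell against TAG-GGC100 (Shank2, Shank1, Dlgap4, Lrrtm2). In ATG-GGN100dCT, 3 fell against ATG-GGC11 (Shank1, Camk2a, Homer2) and 6 against TAG-GGC100, led by Shank1, Dlg1, Homer1 and Homer2. The list's median log2 difference was -0.13, -0.16, -0.10 and -0.19 in these comparisons, beside 0.00, 0.00, 0.01 and 0.01 for all genes. Shank1, a scaffold that links glutamate receptor complexes to actin, was at 52.7 ± 4.01 FPKM in ATG-GGC11, 54.0 ± 2.86 in TAG-GGC100, 43.5 ± 2.78 in ATG-GGC100 and 43.4 ± 4.25 in ATG-GGN100dCT, and fell in all 4 comparisons across these pairs of groups (edgeR adjusted p of 0.00852 to 0.0244). Homer1, whose products bind group I metabotropic receptors and include an activity-induced short form, was at 34.1 ± 2.84 FPKM in TAG-GGC100 and 17.1 ± 4.36 in ATG-GGN100dCT (-1.03 ± 0.23 log2; edgeR adjusted p = 0.0178).

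Of 25 genes for AMPA receptor auxiliary and clustering proteins, 1 fell in ATG-GGC100 against ATG-GGC11 (Cacng2) and 2 fell against TAG-GGC100 (Cacng2, Shisa7). Cacng2 (stargazin), which carries AMPA receptors to the synapse, was at 14.25 ± 1.02 FPKM in ATG-GGC100, 17.0 ± 1.01 in ATG-GGC11 and 18.8 ± 1.44 in TAG-GGC100. Its log2 differences were -0.30 ± 0.07 and -0.44 ± 0.07 (edgeR adjusted p of 0.0231 and 0.000852). In ATG-GGN100dCT, 1 rose (Nptx1) and 2 fell (Olfm3, Cacng7) against ATG-GGC11, and 1 rose (Grip1) and 2 fell (Cacng2, Olfm3) against TAG-GGC100. Of 21 genes of the GABA postsynapse, 2 fell in ATG-GGC100 against TAG-GGC100 (Shisa7, Plcl2), 1 fell in ATG-GGN100dCT against ATG-GGC11 (Kcnj3, a channel subunit opened by GABA-B receptors), and none rose. Of 10 partners of kainate and delta receptors, 1 fell in any comparison, Cbln4, in ATG-GGN100dCT against TAG-GGC100.

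Of 10 GABA handling genes, none rose in any comparison. In ATG-GGC100, 2 fell against ATG-GGC11, Aldh5a1 among them, and 1 against TAG-GGC100. In ATG-GGN100dCT, 2 fell against ATG-GGC11, Slc6a11 among them, and 1 against TAG-GGC100, Slc12a5 (KCC2), the neuronal chloride exporter. Slc6a11 (GAT-3), found mainly in astrocytes, went in ATG-GGN100dCT against ATG-GGC11 from 34.3 ± 1.45 to 23.8 ± 2.89 FPKM (-0.56 ± 0.11 log2; edgeR adjusted p = 0.00865). Of 13 glutamate handling genes, Gls2 fell in ATG-GGC100 against ATG-GGC11, and Slc1a3, an astrocytic glutamate transporter, fell in ATG-GGN100dCT against it and against ATG-GGC100. In ATG-GGC100 against TAG-GGC100, Slc7a11, the cystine and glutamate exchanger, rose and Slc1a1, a neuronal glutamate transporter, fell. Of 20 measured genes of glycine, serotonin and nicotinic channels, Chrna4, the alpha 4 nicotinic subunit, fell in ATG-GGC100 and in ATG-GGN100dCT against each of the other 2 groups. Its level was 6.80 ± 0.171 FPKM in ATG-GGC11 and 6.60 ± 1.06 in TAG-GGC100, and 4.52 ± 0.706 and 4.58 ± 0.776 in the others. In ATG-GGN100dCT, Glrb fell and Chrna2 rose against ATG-GGC11, and Glra1 rose against TAG-GGC100.

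Markers of the cells that carry these receptors moved in part. Of 15 interneuron markers, Lhx6, Erbb4 and Pvalb fell and Vip rose in ATG-GGC100 against ATG-GGC11. Pvalb, the marker of fast-spiking cells, was at 31.8 ± 8.83 FPKM against 64.5 ± 8.64 (-1.06 ± 0.23 log2; edgeR adjusted p = 0.0245). Their summed level was 679 to 750 FPKM in ATG-GGC100, 749 to 851 in ATG-GGC11, 701 to 869 in TAG-GGC100 and 655 to 791 in ATG-GGN100dCT. In ATG-GGC100 against TAG-GGC100, Lhx6, Erbb4 and Pvalb fell. Sst, Erbb4 and Pvalb fell in ATG-GGN100dCT against ATG-GGC11, and Sst and Erbb4 against TAG-GGC100. Of 14 excitatory neuron markers none was called in ATG-GGC100 against ATG-GGC11, and in ATG-GGN100dCT 1 rose (Neurod2) and 1 fell (Rorb) against it. Of 12 genes of neurons in general, none rose and 1 to 5 fell in those 4 comparisons, most often the neurofilament genes Nefl, Nefm and Nefh. Their summed level was 1379 to 1416 FPKM in ATG-GGC11, 1246 to 1354 in ATG-GGC100, 1346 to 1494 in TAG-GGC100 and 1273 to 1338 in ATG-GGN100dCT. Of 12 microglia markers, 10 rose in ATG-GGC100 against ATG-GGC11, with a summed level of 487 to 616 FPKM against 246 to 318. None was called in ATG-GGN100dCT against ATG-GGC11, where the sum was 239 to 368 FPKM. Of 12 immediate early genes, which neuronal activity induces, 11 fell in ATG-GGC100 and all 12 in ATG-GGN100dCT against ATG-GGC11. Against TAG-GGC100, Fosb and Fosl2 fell in ATG-GGN100dCT. None was called by edgeR in ATG-GGC100 against TAG-GGC100, where Npas4, Arc and Fosl2 had unadjusted p of 0.0178, 0.0273 and 0.0324. None was called in TAG-GGC100 against ATG-GGC11 either, but the genes ran lower there too. Egr4, Junb and Fos had unadjusted edgeR p of 0.000149, 0.000768 and 0.00172 in that pair. The list's median log2 difference from ATG-GGC11 was -0.81 in TAG-GGC100, -1.45 in ATG-GGC100 and -1.76 in ATG-GGN100dCT. The immediate early sum was 409 to 572 FPKM in ATG-GGC11, 222 to 376 in TAG-GGC100, 116 to 256 in ATG-GGC100 and 87.3 to 207 in ATG-GGN100dCT. The part of these cells and genes in the receptor values was not tested.

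Striatal transcripts varied between libraries of the same group. A score, the mean log2 CPM (counts scaled to library size) of 15 striatal markers such as Drd1 and Adora2a, ran from 4.77 to 6.65 over the 16 libraries, with group means of 5.58 to 5.86. With the score added to the model beside group, 2 of 41 receptor genes were called for it, both higher, beside 2.99% of all genes, 1.75% higher and 1.24% lower. The receptor share lay above that of all genes but rests on 2 genes, and the excess was not tested. Grik2, the GluK2 subunit, rose by 0.29 ± 0.05 log2 per unit of score (edgeR adjusted p = 0.00315), and Gabrg3 by 0.32 ± 0.07 (edgeR adjusted p = 0.00979). With 1 library left out at a time, the edgeR adjusted p reached 0.0332 for Grik2 and 0.0968 for Gabrg3, so only the Grik2 call was always kept. Without the 2 libraries farthest from the median score the slopes were 0.32 and 0.31, with edgeR adjusted p of 0.0584 and 0.159. Both calls were thus lost, while the slopes stayed close to those with all libraries and the range of scores was narrower. Without TAG-GGC100 replicate 4 alone, 4 receptor genes were called. Neither gene was called between constructs. With the score in the model, ATG-GGN100dCT against ATG-GGC11 called 9 receptor genes, Grm2 among them, beside 1551 of all genes, and ATG-GGN100dCT against TAG-GGC100 called 10, beside 2054. With ATG-GGN100dCT replicate 3 also left out these counts were 0 and 2 by edgeR, beside 314 and 530 of all genes. Of the 10 receptor genes called between constructs, none was called for the score.

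**Figure D5:**
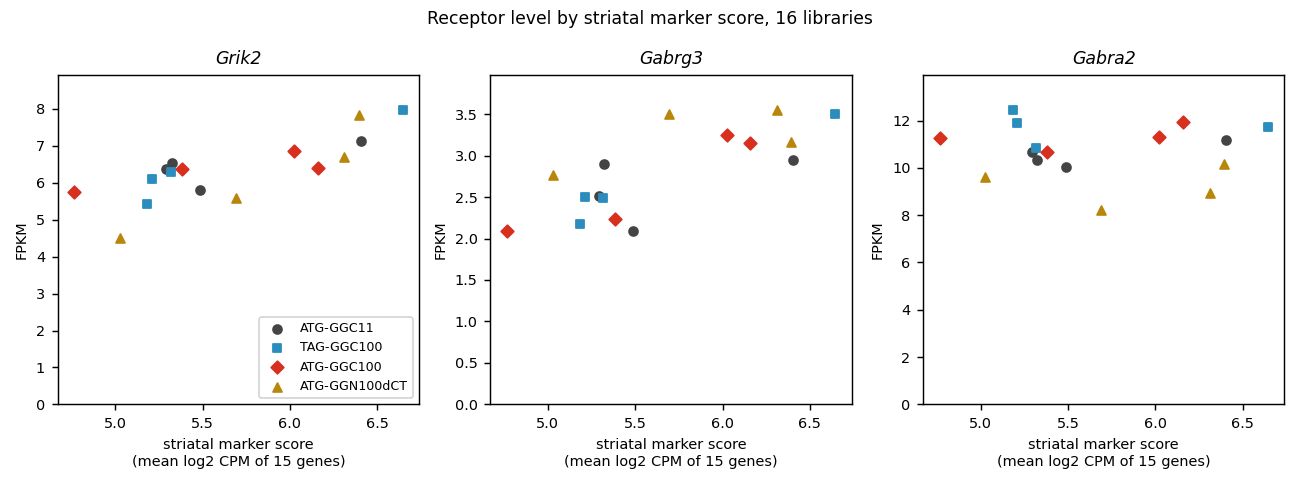
Level (FPKM, axes from 0) of Grik2, Gabrg3 and Gabra2 against the striatal marker score (mean log2 CPM of 15 genes), 1 point per library, marked by group. Grik2 and Gabrg3 climb with the score within groups, whereas Gabra2 is lower in every ATG-GGN100dCT library than in every TAG-GGC100 library. TAG-GGC100 replicates 1, 2 and 4 score 5.32, 5.21 and 5.18 and replicate 3 scores 6.65. The ATG-GGN100dCT scores run from 5.03 to 6.39, so these 2 groups can be compared at few scores.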

How the data were processed

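Per the file headers, the deposited table pairs a raw count with an FPKM value for every gene in each library. FPKM was scaled by the authors to exonic length and library total; recomputing it from the counts gave the deposited FPKM to within 0.005. Per the submitters' processing notes, FastQC 0.10.1 and cutadapt 1.9.1 were used, with builds GRCm39 and mm10; the sources used here do not name aligner, counter or annotation. Per the labels' protocols, poly(A) RNA was selected from total RNA. The 4 construct rows were not tested; their share was up to 0.00714%.

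Counts were tested with edgeR 4.0.16 (R 4.3.3): TMM scaling (factors 0.975 to 1.03), all 16 libraries in 1 robust quasi-likelihood fit with group as the only term, two-sided, Benjamini-Hochberg over 17863 genes with at least 10 counts in at least 4 libraries. The SE is the log2 fold change divided by the square root of F. FPKM serves for levels and ranges; log2 fold changes come from counts. DESeq2 1.42.0, limma 3.58.1, other filters, scalings and left-out libraries were alternatives. Scripts were tested on simulated data. Named genes were all receptor genes called, the highest of each class, and up to 4 with the smallest p per comparison. Some members and list genes enter the counts but are not reported here. Members and lists were chosen with earlier results of these data known. Replicates of a group differed beyond counting noise in all 24 pairs. Equal replicate numbers did not pair libraries: their deviations correlated at -0.202 to 0.192, above 0.1 in 3 of 24 pairs.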

Additional observations from a re-analysis of the deposited data

Results flagged for a closer look

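In 3 of 144 sets of 4 libraries (36 genes in 4 groups), 1 library lay far from the other 3 by Dixon's test; chance alone flags about 1 in 20. Grik5 was at 41.90 FPKM in TAG-GGC100 replicate 1, with the others at 35.67 to 36.51. Gria1 was at 75.79 FPKM in ATG-GGN100dCT replicate 3, with the others at 65.11 to 66.66. Gabbr1 was at 90.33 FPKM in TAG-GGC100 replicate 4, with the others at 95.89 to 96.83.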

How the results depend on the processing

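No called receptor gene changed direction in 29 alternatives to each comparison of 2 groups. The test over the 4 groups had 28 alternatives and gives no direction. Of 603 values, 495 stayed called and 108 did not. The threshold of 0.1 reads the main fit at a looser cut, so that alternative could not lose a call or change a direction. This holds also where a call was kept in all 29. With 1 library left out at a time, counts ran from 0 to 2 for ATG-GGC100 against ATG-GGC11, 2 to 10 for ATG-GGN100dCT against ATG-GGC11, 1 to 6 for ATG-GGC100 against TAG-GGC100, 3 to 11 for ATG-GGN100dCT against TAG-GGC100, 0 to 3 for ATG-GGN100dCT against ATG-GGC100, 5 to 12 over the 4 groups, 2 to 4 for the striatal score, and stayed at 0 for TAG-GGC100 against ATG-GGC11. ATG-GGC100 against ATG-GGC11 called 0 with library totals, a 1 FPKM filter, limma at either pseudocount (1 or 0.1) or the replicate block, and 2 with no filter or only the 8 libraries compared. ATG-GGN100dCT against ATG-GGC11 called 5 with no filter, 6 with DESeq2, and 9 with the striatal score or a threshold of 0.1. ATG-GGC100 against TAG-GGC100 called 1 with library totals or limma, and 5 with DESeq2, the striatal score or a threshold of 0.1. ATG-GGN100dCT against TAG-GGC100 called 3 with only the 8 libraries compared, 10 with the striatal score and 12 at 0.1. ATG-GGN100dCT against ATG-GGC100 called 4 with DESeq2, 1 with limma or the replicate block, and 0 with only the 8 libraries compared. The test over the 4 groups called 10 with no filter, DESeq2 or a threshold of 0.1, and 11 with the striatal score. The replicate block left the other counts within 1.5 times. An alternative chosen after seeing the data, the striatal score with ATG-GGN100dCT replicate 3 left out, called 2, 0, 7, 2 and 1 in these 5 comparisons in the order given. Without the 2 libraries farthest from the median score, the striatal score called 0; it was also chosen after seeing the data. The number of all genes called moved with the left-out library too, as given above. For most other settings that number is not given here. The changes in these counts can therefore not be read as particular to the receptor genes, and their cause was not tested. Gabre, Gabrq and Gabrr2 are too thinly counted for small differences to show.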
